A study of Mus musculus with 8 samples.

Results

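The genes described here are 10 genes by which endothelial cells, the cells that line blood vessels, are commonly recognised, Pecam1, Cdh5, Vwf, Emcn, Eng, Tie1, Esam, Robo4, Erg and Sox17. They were taken by name, with earlier results of these data known, and all 10 of them were found among the 26667 genes of the count table. Their levels were measured by RNA-seq in undifferentiated pleomorphic sarcoma (UPS), a soft tissue tumour, of the mouse hind limb. The tumours came from 4 KP mice, here KP 5 to KP 8, which are Trp53 fl/fl, and from 4 KPH2 mice, here KPH2 1 to KPH2 4, which are in addition Epas1 fl/fl. In both groups tumours were started by adenovirus carrying Cre-recombinase, injected into the hind limb muscle of male and female mice aged at least 8 weeks on a mixed 129/C57BL/6 background, so that loss of Trp53 is shared and the floxed Epas1 alleles are what differs. The end point was either a permitted limit of tumour size or 7 weeks from injection. The virus acts where it is injected, and which cells of a tumour had recombined their alleles, vessel cells included, was not measured in these libraries. One library was made per tumour.

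Epas1 encodes HIF-2α, the oxygen-regulated subunit of a transcription factor, and its other name, endothelial PAS domain protein, comes from its high expression in endothelium. Vessels of a tumour are lined by endothelial cells that hold to each other through VE-cadherin (Cdh5), PECAM-1 and ESAM, receive growth and stabilising signals through receptors such as VEGFR2 (Kdr) and TIE2 (Tek), and keep their identity through transcription factors of the ETS and SOX families. RNA of a whole tumour mixes these cells with tumour cells, leukocytes, pericytes and muscle, so that fewer endothelial cells and less RNA of these genes per endothelial cell cannot be told apart.

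The deposited counts summed to between 6463221 and 13155510 per tumour, and levels are given as CPM (counts scaled to a common library size) with library sizes adjusted by TMM, which corrects for differences in library composition. The study's Methods set a single knockout tumour aside as an outlier, although its Results and Methods differ on how many tumours of each genotype were used, and KPH2 1 is the tumour that the authors' smaller table of transformed values lacks. KPH2 1 is therefore shown apart, and the comparison rests on KP 5 to KP 8 against KPH2 2 to KPH2 4, with the fit over all 8 tumours beside it. KPH2 1 was below every other tumour for 14.8% of the 14805 genes tested over 8 tumours and above every other tumour for 17.7%. The closest pair of libraries, KP 6 and KP 8, differed far beyond sampling noise (chi-square divided by its degrees of freedom, 28.3), so no library appeared to be deposited in duplicate.

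The targeted gene, Epas1, was at 59.2, 83.2, 86.9 and 84.1 CPM in KP 5, 6, 7 and 8, at 32.6 CPM in KPH2 1, and at 53.4, 37.7 and 42.5 CPM in KPH2 2, 3 and 4. All KPH2 tumours lay below all KP tumours. The log2 fold change was -0.81 (SE 0.19, edgeR quasi-likelihood test with Benjamini-Hochberg adjustment, adjusted p = 0.0742), and DESeq2 gave an adjusted p of 0.0115. Counts per gene also take in exons outside a deleted part, so they do not by themselves check the deletion. The paper checked it by PCR and reports that Epas1 was efficiently deleted in KPH2 tumours.

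Levels of the 10 genes can be set beside each other only per length, and per kilobase of exon the order in KP tumours was led by the junction gene Pecam1, with a mean of 27.6 CPM per kb ± 7.19 (SD, n = 4). Cdh5 (24.5 CPM per kb ± 10.2), Eng (21.7 CPM per kb ± 8.33) and Esam (21.1 CPM per kb ± 5.0) followed, and the ranges of each of these neighbours overlapped. Emcn (11.4 CPM per kb ± 4.04) and Tie1 (8.54 CPM per kb ± 1.22) lay in the middle, again with overlapping ranges. Robo4 (4.94 CPM per kb ± 1.16) and Vwf (4.72 CPM per kb ± 2.29) overlapped with each other, and Robo4 lay below Tie1 in all 4 KP tumours without overlap of their ranges. The transcription factors were lowest, Erg at 2.81 CPM per kb ± 0.675 and Sox17 at 1.05 CPM per kb ± 0.21, and Sox17 lay below Erg in every KP tumour without overlap. Erg was below Vwf in 3 of 4 KP tumours, with overlapping ranges. All 10 genes were detected in every tumour, and Sox17 rested on the fewest counts, from 12 in KPH2 1 to 61 in KP 8.

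**Figure D1:**
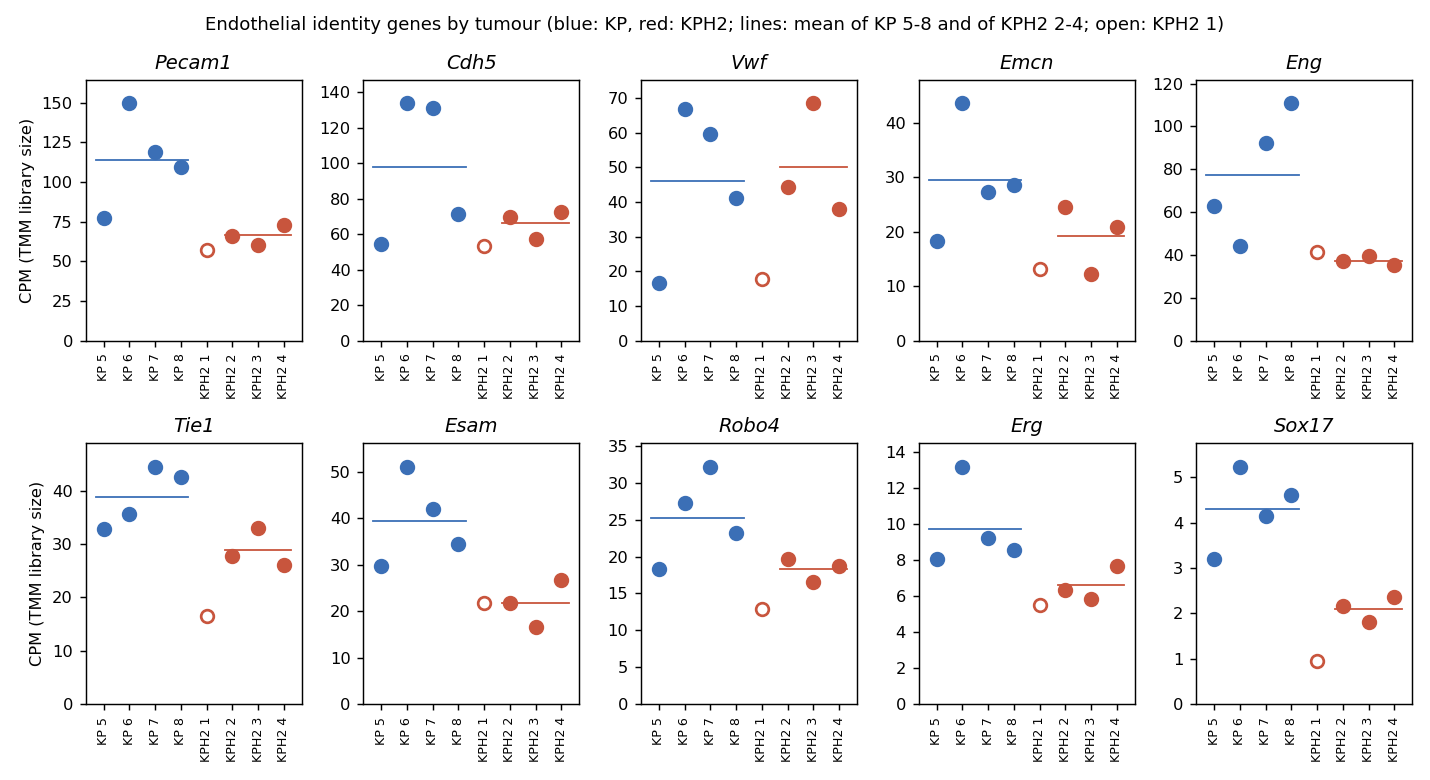
Level of each of the 10 endothelial genes in each tumour (vertical axes, CPM of TMM library size, starting at 0; horizontal axes, tumours), with KP in blue, KPH2 in red, KPH2 1 as an open point and lines at the means of KP 5 to KP 8 and of KPH2 2 to KPH2 4. For Pecam1, Eng, Esam, Erg and Sox17 all KPH2 points lie below all KP points, and for the other 5 genes the groups overlap.

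Among the genes of endothelial junctions, Pecam1, the adhesion molecule known as CD31, was at 77.4, 149.5, 119.0 and 109.7 CPM in KP 5, 6, 7 and 8, at 57.5 CPM in KPH2 1, and at 66.3, 60.2 and 73.0 CPM in KPH2 2, 3 and 4. There was no overlap between the groups, although KP 5 lay close to KPH2 4. Its log2 fold change was -0.78 (SE 0.22, edgeR adjusted p = 0.119) over 7 tumours and -0.83 (adjusted p = 0.150) over all 8. Esam, an adhesion molecule of tight junctions, was at 29.7, 51.1, 42.1 and 34.6 CPM in KP tumours, at 21.7 CPM in KPH2 1, and at 21.8, 16.5 and 26.7 CPM in KPH2 2 to KPH2 4. Every KPH2 tumour was again below every KP tumour, with a log2 fold change of -0.86 (SE 0.24, edgeR adjusted p = 0.118). Cdh5, which encodes VE-cadherin of the adherens junction, was at 54.7, 133.7, 131.2 and 71.2 CPM in KP tumours, at 53.6 CPM in KPH2 1, and at 69.8, 57.2 and 72.6 CPM in KPH2 2 to KPH2 4. KP 6 and KP 7 stood high while KP 5 and KP 8 lay among the KPH2 tumours, and the log2 fold change of -0.55 (SE 0.32, edgeR adjusted p = 0.426) was less than 2 standard errors from 0.

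Among the receptors, Eng, a co-receptor for ligands of the TGF-β family that is also made by some stromal cells, was at 63.1, 44.0, 92.4 and 110.7 CPM in KP 5, 6, 7 and 8. In KPH2 1 it was at 41.3 CPM, and in KPH2 2, 3 and 4 it was at 37.4, 39.6 and 35.2 CPM. The KPH2 tumours spanned a narrow range below all KP tumours, and the log2 fold change was -1.05 (SE 0.30, edgeR adjusted p = 0.119). Tie1, a receptor tyrosine kinase that modulates angiopoietin signalling, was at 32.8, 35.7, 44.5 and 42.6 CPM in KP tumours, at 16.5 CPM in KPH2 1, and at 27.7, 33.0 and 26.0 CPM in KPH2 2 to KPH2 4. The groups touched, KPH2 3 lying just above KP 5, and the log2 fold change was -0.43 (SE 0.17, edgeR adjusted p = 0.245). Robo4, a roundabout receptor that stabilises the vessel wall, was at 18.3, 27.3, 32.2 and 23.2 CPM in KP tumours, at 12.9 CPM in KPH2 1, and at 19.7, 16.5 and 18.7 CPM in KPH2 2 to KPH2 4. KP 5 lay within the KPH2 range, and the log2 fold change was -0.46 (SE 0.22, edgeR adjusted p = 0.313).

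Emcn, a sialomucin of the luminal surface most abundant on capillaries and veins, was at 18.3, 43.6, 27.3 and 28.6 CPM in KP tumours, at 13.1 CPM in KPH2 1, and at 24.5, 12.3 and 20.9 CPM in KPH2 2 to KPH2 4. The groups overlapped through KP 5, with a log2 fold change of -0.61 (SE 0.33, edgeR adjusted p = 0.385). Vwf, the von Willebrand factor that tethers platelets and is stored in granules of endothelial cells, was at 16.8, 66.9, 59.7 and 41.1 CPM in KP tumours, at 17.8 CPM in KPH2 1, and at 44.3, 68.4 and 38.0 CPM in KPH2 2 to KPH2 4. The lowest and the highest of the 7 tumours were a KP and a KPH2 tumour, KP 5 and KPH2 3. Its log2 fold change was 0.13 (SE 0.44, edgeR adjusted p = 0.919) over 7 tumours and -0.13 (SE 0.48, edgeR adjusted p = 0.931) over all 8, so its direction depended on KPH2 1.

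The transcription factor genes were both lower in all KPH2 tumours. Erg, an ETS factor that keeps endothelial genes active, was at 8.02, 13.2, 9.19 and 8.53 CPM in KP tumours and at 5.51 CPM in KPH2 1. In KPH2 2, 3 and 4 it was at 6.30, 5.80 and 7.66 CPM. The gap between KP 5 and KPH2 4 was small beside the spread within groups, and the log2 fold change was -0.56 (SE 0.26, edgeR adjusted p = 0.301). Sox17, a SOX factor of arterial endothelium, was at 3.19, 5.23, 4.15 and 4.60 CPM in KP tumours, at 0.959 CPM in KPH2 1, and at 2.16, 1.80 and 2.37 CPM in KPH2 2 to KPH2 4. All KP tumours lay clear of all KPH2 tumours, with a log2 fold change of -1.02 (SE 0.30, edgeR adjusted p = 0.131) over 7 tumours and -1.24 (adjusted p = 0.182) over all 8.

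**Figure D2:**
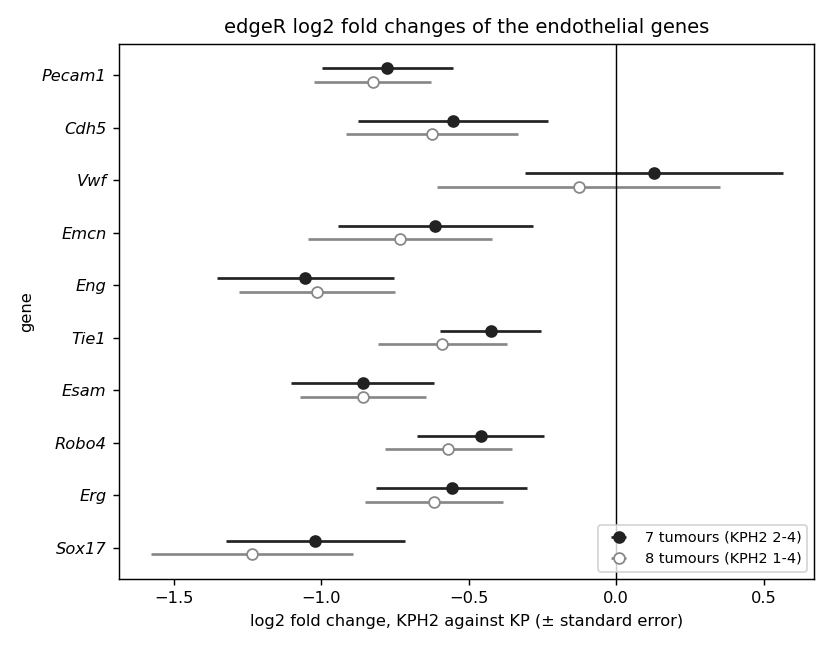
edgeR log2 fold change of KPH2 against KP (horizontal axis) for each endothelial gene (vertical axis), over 7 tumours in black and over all 8 as open grey points, with bars of 1 standard error. In both fits 9 genes lie below 0, and Vwf changes side between them.

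None of the 10 genes passed an adjusted p of 0.05 by edgeR in either fit, where 1.96% of the 14867 genes tested over 7 tumours and 0.00675% of the 14805 tested over 8 did so. At an unadjusted p under 0.05, 5 of 10 genes were lower in KPH2 over 7 tumours, against 9.26% of all genes, and 8 of 10 over all 8, against 8.02% of all genes. By DESeq2, a related count test, Pecam1 (adjusted p = 0.0398), Eng (adjusted p = 0.0224) and Esam (adjusted p = 0.0353) passed as lower over 7 tumours, where 3.43% of all genes did. Over all 8 tumours DESeq2 passed these 3 genes and Sox17 (adjusted p = 0.0416), 4 of 10 genes beside 2.38% of all genes. The statement that a gene was lower in KPH2 at an adjusted p of 0.05 therefore depended on the count test for these 4 genes.

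Of the 10 genes, 9 had a negative log2 fold change over 7 tumours, beside 52% of all genes, and 10 of 10 had one over all 8, beside 49.1%. Their median log2 fold change was -0.59 over 7 tumours and -0.68 over 8, where the medians of all genes tested were -0.02 and 0.01. With a skeletal muscle score as a covariate, described with the muscle genes below, the median over 7 tumours was -0.10, 7 of 10 genes were negative, and the log2 fold changes of Cdh5 (0.33) and Emcn (0.16) were positive. The groups did not overlap, with KPH2 lower, for 5 of 10 genes in the 7 tumours, beside 8.15% of all genes, and for the same 5 genes in the 8 tumours, beside 4.39%. For single genes the exact two-sided permutation test over tumours gave p = 0.0286 for Sox17 and p = 0.0571 for Pecam1, Eng, Esam and Erg over 7 tumours, and p = 0.0286 for all 5 over 8 tumours, 0.0286 being the smallest value that either design allows. For the 5 genes with overlapping groups the same exact test gave p-values from 0.0857 to 0.714 over 7 tumours.

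Many of the 10 genes, though not all, had the same tumours at their extremes. KP 6 was the highest of all 8 tumours for 6 of the 10 genes, and KPH2 1 was the lowest for 6. The mean log2 CPM of the 10 genes was 4.53, 5.31, 5.24 and 5.04 in KP 5, 6, 7 and 8, 3.98 in KPH2 1, and 4.50, 4.36 and 4.52 in KPH2 2, 3 and 4. KP 5 thus stood just above KPH2 4 and below the other KP tumours. In a fit without KP 5, Pecam1 passed the edgeR threshold with a log2 fold change of -0.91 (adjusted p = 0.0437), the groups did not overlap, with KPH2 lower, for 8 of 10 genes, beside 12.9% of all genes, and Vwf had a log2 fold change of -0.14. In a fit without KPH2 3 the log2 fold change of Vwf was -0.16.

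**Figure D3:**
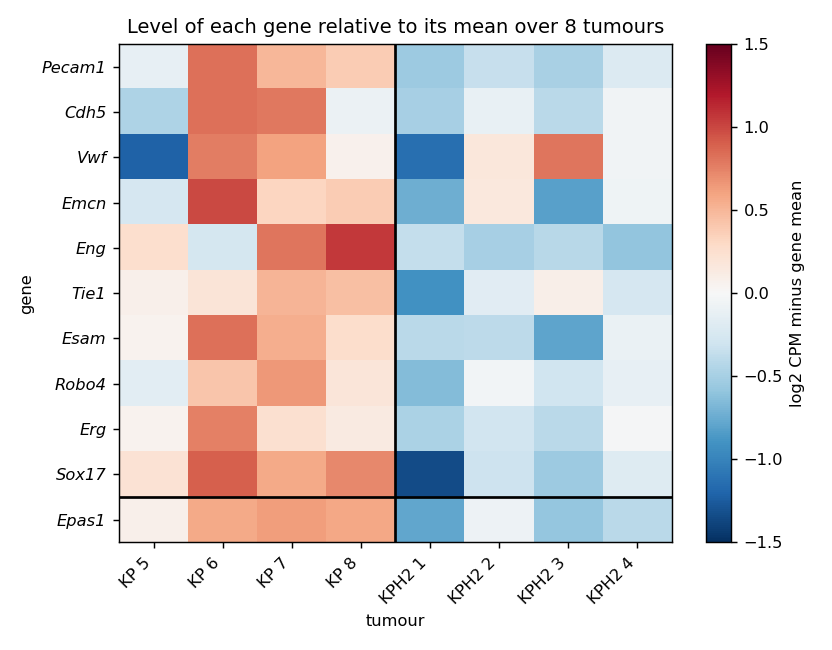
Log2 CPM of each endothelial gene and of Epas1 (rows) in each tumour (columns) after subtraction of the gene's mean over the 8 tumours, with red above and blue below that mean. The KP 6 and KP 7 columns are above the mean for all genes except Eng in KP 6, the KPH2 1 column is below it for all 10 endothelial genes, and KPH2 3 is above it for Vwf and Tie1.

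Over the 8 tumours, which include both genotypes and share their libraries across genes, the log2 CPM of all 45 pairs of the 10 genes correlated positively, with a median Pearson's r of 0.717 and a range from 0.016 to 0.956. Robo4 (r = 0.961) and Pecam1 (r = 0.958) followed the mean of the other 9 genes most closely. Eng (r = 0.479) and Vwf (r = 0.470) followed it least, and their own pair had the lowest r, 0.016. Without KPH2 1, 44 of the 45 pairs were positive, with a median r of 0.710 and a range from -0.145, for Eng and Vwf, to 0.962. Both sets of values pool the genotypes, whose means differ, and a genotype alone, with at most 4 tumours, is too small a set for one to be given. Among the KP tumours Vwf had the same order as Pecam1, highest in KP 6 and lowest in KP 5. Eng was, by contrast, lowest in KP 6, the tumour that was highest for Pecam1, Cdh5, Vwf, Emcn, Esam, Erg and Sox17. These values are descriptions, not tests.

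Among the 11888 genes with a mean count of at least 50, the 5 outside the set whose log2 CPM was most like the mean of the 10 genes over the 8 tumours were Tec (r = 0.979), Vash1 (r = 0.971), Tank (r = 0.968), Jarid2 (r = 0.965) and Hk3 (r = 0.965). Vash1, which encodes vasohibin-1, an inhibitor of angiogenesis made by endothelial cells, was at 56.1, 107.2, 101.7 and 97.9 CPM in KP 5, 6, 7 and 8, at 41.3 CPM in KPH2 1, and at 48.3, 55.1 and 56.7 CPM in KPH2 2, 3 and 4. Hk3, a hexokinase best known from myeloid cells, was at 11.8, 22.1, 24.3 and 19.2 CPM in KP tumours, at 7.11 CPM in KPH2 1, and at 8.37, 8.11 and 11.4 CPM in KPH2 2 to KPH2 4. Tec, a kinase best known from blood cells, was at 10.03 to 19.95 CPM in KP tumours and at 8.81 to 10.8 CPM in KPH2 2 to KPH2 4. Of the first 20 genes in that order 1, Gpr116, was in the endothelial lists used below. Those lists do not hold every endothelial gene, so this is no count of endothelial genes among the 20. Vash1, Epas1, Ppp1r16b (r = 0.951) and Pcdh12 (r = 0.945) were among the 20 and in none of the lists. The 20 also held the platelet gene Pf4 (r = 0.948), the pericyte gene Abcc9 (r = 0.959) and Laptm5 and Csf2rb, best known from leukocytes. Apart from Vash1 and Epas1, all were named after their values were seen.

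Epas1 itself was the 15th gene in that order, with r = 0.948. This order also pools the genotypes, between which the means of Epas1 and of the 10 genes both differ. Its log2 CPM exceeded the mean log2 CPM of the 10 genes by 1.25 ± 0.138 (SD, n = 4) in KP tumours, by 1.01 ± 0.202 (SD, n = 3) in KPH2 2 to KPH2 4 and by 1.05 in KPH2 1. The log2 fold change of Epas1, -0.81, lay within the range of those of the 10 genes, -1.05 to 0.13, and its distance to their mean overlapped between the groups, from 1.07 to 1.36 in KP tumours and from 0.887 to 1.24 in KPH2 2 to KPH2 4. The paper's PCR found the deletion in KPH2 tumours. As sources of the lower Epas1 counts, the deletion and a smaller share of cells that express the gene cannot be told apart here.

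**Figure D4:**
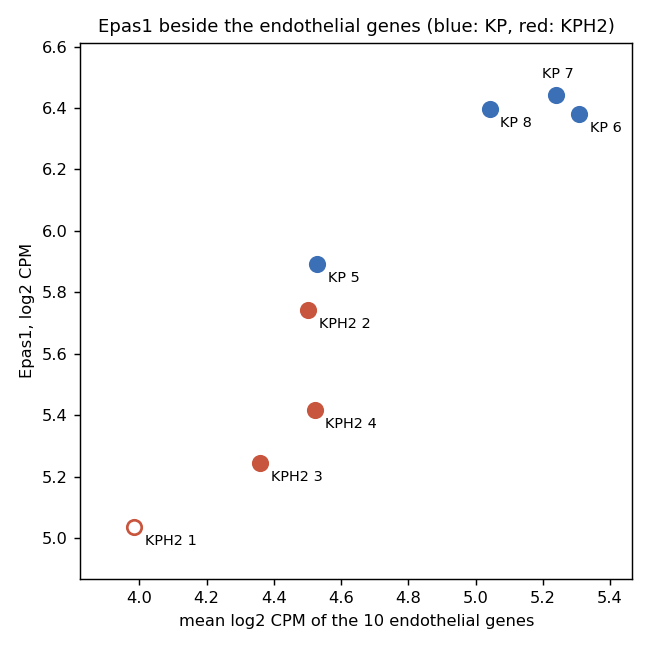
Epas1 (vertical axis, log2 CPM) against the mean log2 CPM of the 10 endothelial genes (horizontal axis) in the 8 tumours, KP in blue, KPH2 in red and KPH2 1 open. KP 6, 7 and 8 lie at the upper right, KP 5 lies next to KPH2 2, and KPH2 1 lies at the lower left.

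Further endothelial genes, a list of 30 that were all tested, showed the same direction. Of these, 27 had a negative log2 fold change over 7 tumours, with a median of -0.51, 11 were lower at an unadjusted p under 0.05, and 7 had groups that did not overlap, with KPH2 lower, the shares of all genes being 9.26% and 8.15%. By edgeR 1 passed the adjusted threshold, as 0.72% of all genes did in this direction. It was Clec14a, a C-type lectin of tumour vessels, at 11.4, 16.6, 9.34 and 15.9 CPM in KP 5, 6, 7 and 8, 6.55 CPM in KPH2 1, and 5.31, 5.60 and 4.40 CPM in KPH2 2, 3 and 4 (log2 fold change -1.38, SE 0.27, adjusted p = 0.0457). With all 8 tumours, or with any tumour other than KP 5 left out, 0 of the 30 passed by edgeR, and without KP 5, 2 did. By DESeq2 4 of the 30 passed as lower over 7 tumours, where 3.43% of all genes did, and 4 over all 8, where 2.38% did. Bcl6b, a transcriptional repressor, had the smallest p of the 3 genes with a positive value (log2 fold change 0.80, adjusted p = 0.248).

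Of 5 receptors for VEGF and angiopoietins, 4 had negative values and 0 passed by edgeR. By DESeq2 1 passed as lower over 7 tumours and 1 over all 8, the shares of all genes being 3.43% and 2.38%. At an unadjusted p under 0.05 by edgeR 1 was lower, as 9.26% of all genes were. That gene was Kdr, the main signalling receptor for VEGF-A, at 61.6, 92.5, 67.5 and 85.1 CPM in KP 5, 6, 7 and 8, at 38.4 CPM in KPH2 1, and at 45.2, 49.3 and 45.4 CPM in KPH2 2, 3 and 4, without overlap (log2 fold change -0.72, SE 0.18, adjusted p = 0.0818). Nrp2, a co-receptor, had a log2 fold change of 0.05 (adjusted p = 0.965). The genes for vessel subtypes were less uniform. Of 5 tested arterial genes 3 were positive and 2 negative, with a median log2 fold change of 0.08, from -0.90 for the Notch ligand Dll4 to 1.29 for the gap junction gene Gja5. Of 4 tested venous genes 2 were positive, Ephb4 having a log2 fold change of 0.57 and Aplnr one of -0.71. Of 6 genes of sprouting tip cells 4 were negative, from -1.0 for Esm1 to 1.66 for Pgf. By edgeR 0 of these arterial, venous and tip cell genes passed the adjusted threshold, and 1, 0 and 0 of them had an unadjusted p under 0.05. The arterial one, Dll4, was lower in KPH2, as 9.26% of all genes were, while 8.5% were higher.

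The lymphatic list went the other way in part. Of its 6 genes, Reln, Ccl21a, Prox1 and Flt4, named after their values were seen, were higher in all of KPH2 2 to KPH2 4 than in every KP tumour, as 8.73% of all genes were, and Reln passed the adjusted threshold as 1.24% of all genes did in this direction (log2 fold change 4.85, edgeR adjusted p = 0.00515). Over all 8 tumours the edgeR adjusted p of Reln was 0.157, and 0 of the 6 genes passed by edgeR. By DESeq2 3 of the 6 genes passed as higher over 7 tumours, Reln, Ccl21a and Prox1, where 3.77% of all genes did, and 1 over all 8, Reln, where 1.67% did. Prox1, the transcription factor of lymphatic identity, was at 0.446, 1.56, 0.445 and 0.302 CPM in KP 5, 6, 7 and 8, at 0.320 CPM in KPH2 1, and at 2.61, 11.4 and 2.59 CPM in KPH2 2, 3 and 4. KPH2 1 thus lay with the KP tumours, and with it included the groups overlapped for all 6 genes. Pdpn and Lyve1 were at log2 fold changes of -0.91 (adjusted p = 0.208) and -1.94 (adjusted p = 0.213) by edgeR. Lyve1 passed as lower by DESeq2 over 7 (adjusted p = 0.0249) and over 8 tumours (adjusted p = 0.0270), where 3.43% and 2.38% of all genes did. Reln was at 16.1, 29.9, 9.04 and 10.8 CPM in KP tumours, at 5.19 CPM in KPH2 1, and at 461, 467 and 493 CPM in KPH2 2 to KPH2 4. Genes of this list can also be made by other cells, and which cells made their RNA here was not tested.

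**Figure D5:**
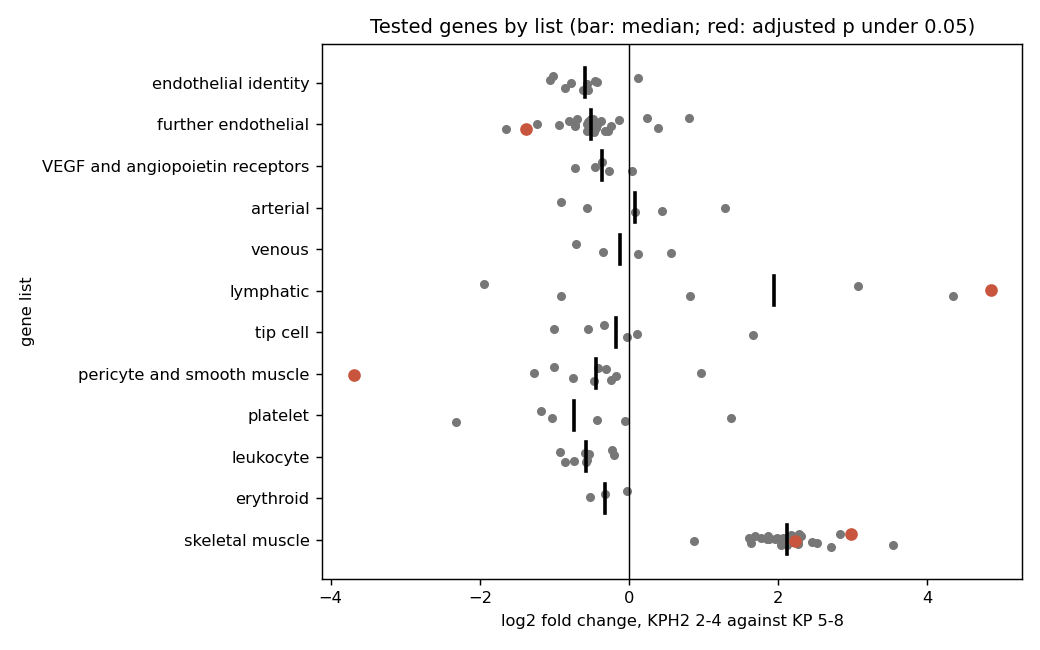
edgeR log2 fold change of KPH2 2 to KPH2 4 against KP 5 to KP 8 (horizontal axis) for each tested gene of each list (vertical axis), with black bars at list medians and red points past an adjusted p of 0.05. The 10 endothelial identity genes (median -0.59) and the 30 further endothelial genes (median -0.51) lie mostly below 0, while all 30 skeletal muscle genes lie above it (median 2.12).

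Markers of other cell types were compared between the same groups. All 30 skeletal muscle genes had positive log2 fold changes, with a median of 2.12, and 2 of them passed by edgeR, where 1.24% of all genes passed as higher, Eno3 (log2 fold change 2.98, adjusted p = 0.00922) and Neb (log2 fold change 2.23, adjusted p = 0.0430). Over all 8 tumours 0 of the 30 passed by edgeR. By DESeq2 24 of the 30 passed as higher over 7 tumours, where 3.77% of all genes did, and 6 over all 8, where 1.67% did. Their summed level was between 2026 and 3579 CPM in KP tumours, 12781, 20293 and 4423 CPM in KPH2 2, 3 and 4, and 1568 CPM in KPH2 1. With the muscle score, the mean log2 CPM of these genes, as a covariate the median log2 fold change of the 10 endothelial genes was -0.10 over the 7 tumours, in which the score did not overlap between genotypes, and -0.65 over all 8, a fit added after the data were seen, in which it overlapped through KPH2 1 alone. Muscle and genotype cannot be told apart in the 7 tumours.

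Of 10 genes of pericytes and smooth muscle, the cells that wrap vessels, 9 had negative log2 fold changes, with a median of -0.44, and Cnn1, a calponin of smooth muscle, passed by edgeR (log2 fold change -3.69, adjusted p = 0.0492), as 0.72% of all genes did in this direction. Over all 8 tumours its edgeR adjusted p was 0.102, and by DESeq2 2 of the 10 passed as lower over 7 tumours and 2 over all 8, the shares of all genes being 3.43% and 2.38%. At an unadjusted p under 0.05 by edgeR, 2 of the 10 were lower and 1 higher, where 9.26% and 8.5% of all genes were, and 2 had groups that did not overlap, with KPH2 lower, where 8.15% of all genes had. Notch3, a receptor of mural cells, had a log2 fold change of 0.96 (adjusted p = 0.227). Their summed level ranged from 706 to 1348 CPM in KP tumours and from 532 to 1379 CPM in KPH2 2 to KPH2 4. All 9 tested leukocyte genes were negative, with a median of -0.57 and 0 past the adjusted threshold by edgeR, 4 being lower at an unadjusted p under 0.05, as 9.26% of all genes were. Their summed level ranged from 930 to 1596 CPM in KP tumours and from 655 to 1023 CPM in KPH2 2 to KPH2 4. The Fc receptor gene Fcgr3 had a log2 fold change of -0.92 (adjusted p = 0.194). Of 6 tested platelet genes 5 were negative and 0 passed by edgeR, while DESeq2 passed 0 over 7 tumours and 1, Pf4, as lower over all 8, as 2.38% of all genes did. At an unadjusted p under 0.05, 2 of them were lower, Pf4 with a log2 fold change of -1.03 having the smallest p, and 1 was higher, Gp5 with a log2 fold change of 1.37, the shares of all genes being 9.26% and 8.5%. The summed level of the platelet genes was 37.5, 70.9, 58.9 and 54.9 CPM in KP 5, 6, 7 and 8, 33.2 CPM in KPH2 1, and 34.5, 25.2 and 35.1 CPM in KPH2 2 to KPH2 4, so that this sum, to which Pf4 gave the largest part, was lower in every KPH2 tumour than in every KP tumour. The mean log2 CPM of the platelet list overlapped between the groups, from 0.178 to 0.863 in KP tumours and from -0.159 to 0.646 in KPH2 2 to KPH2 4. All 3 tested erythroid genes were negative, the haemoglobin gene Hba-a2 with a log2 fold change of -0.52 having the smallest p, and 0 had an unadjusted p under 0.05 by edgeR. Their summed level, from 11.7 to 17.7 CPM in KP tumours and from 12.1 to 15.3 CPM in KPH2 2 to KPH2 4, overlapped between the groups. The part of leukocytes, platelets and mural cells in the endothelial values was not tested.

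The 10 genes lie on 9 chromosomes in GRCm38, Pecam1 on 11, Cdh5 on 8, Vwf on 6, Emcn on 3, Eng on 2, Tie1 on 4, Erg on 16, Sox17 on 1, and Esam and Robo4 both on 9. Esam (chr9:37528089-37538319) and Robo4 (chr9:37401902-37414023) are the only 2 that share a chromosome, and lie on the same strand. Cdh5 overlaps the long non-coding gene Gm29682, Emcn overlaps Gm38650, and Eng overlaps a microRNA gene, a snoRNA gene and the protein-coding gene Fpgs, so that counts of these 3 genes depend on how reads in shared bases were assigned. The other 7 overlap no annotated gene.

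Promoter windows from RefSeq (GRCm38.p6), running from 250 bases before to 50 bases after the start site, were at hand for 5 of the 10 genes. Those of 4 genes with a single window are shown because Erg, one of the genes above, belongs to the ETS factors. Their binding core is GGAA or GGAT, and GGAAG, searched here, is a longer form of it. Cores outside GGAAG were not counted and are not marked. Capitals mark GGAAG or, on the other strand, CTTCC, and each window is written 5′ to 3′ on the strand of its gene.
Eng (chr2:32646345-32646644, plus strand): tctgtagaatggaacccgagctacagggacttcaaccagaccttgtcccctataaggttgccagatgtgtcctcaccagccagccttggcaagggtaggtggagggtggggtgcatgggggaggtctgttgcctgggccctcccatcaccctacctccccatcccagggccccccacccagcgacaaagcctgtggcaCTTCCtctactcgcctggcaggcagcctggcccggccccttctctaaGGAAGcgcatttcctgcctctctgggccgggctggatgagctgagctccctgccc
Emcn (chr3:137340828-137341127, plus strand): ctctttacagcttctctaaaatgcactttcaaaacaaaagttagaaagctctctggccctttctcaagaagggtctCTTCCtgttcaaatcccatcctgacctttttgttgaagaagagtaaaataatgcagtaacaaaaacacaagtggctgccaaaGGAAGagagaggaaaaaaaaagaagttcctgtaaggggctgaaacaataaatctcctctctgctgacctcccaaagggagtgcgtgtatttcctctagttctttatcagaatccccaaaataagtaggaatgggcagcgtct
Tie1 (chr4:118489800-118490099, minus strand): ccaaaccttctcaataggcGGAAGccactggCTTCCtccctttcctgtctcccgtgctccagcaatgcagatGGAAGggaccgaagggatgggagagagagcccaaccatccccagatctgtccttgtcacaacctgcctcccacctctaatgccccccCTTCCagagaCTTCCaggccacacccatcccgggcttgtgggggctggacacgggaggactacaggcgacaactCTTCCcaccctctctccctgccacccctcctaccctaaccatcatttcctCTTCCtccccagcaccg
Robo4 (chr9:37401722-37402021, plus strand): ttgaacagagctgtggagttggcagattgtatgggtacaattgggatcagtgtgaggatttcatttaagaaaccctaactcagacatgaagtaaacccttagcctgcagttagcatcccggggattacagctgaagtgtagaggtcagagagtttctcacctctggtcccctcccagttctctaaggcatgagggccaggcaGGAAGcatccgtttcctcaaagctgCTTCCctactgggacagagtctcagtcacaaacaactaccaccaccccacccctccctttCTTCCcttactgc

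GGAAG stood 2 times in the windows of Eng and Emcn, 7 times in that of Tie1 and 3 times in that of Robo4, and 2 of the 3 windows of Erg held it once. It also stands in 71.4% of the 32851 promoter windows of the table, so its presence does not set these genes apart. Each motif was searched on both strands. Of the longer ETS forms, which contain this core, AGGAAG (35.4% of all windows) was in all 4 windows shown, and CCGGAAG (8.86%) was in none of the 7 windows of these genes. The letters ACGTG (19.6%), a core that HIF factors bind, were in none of the 7 windows, and GCGTG (32.4%), the other form of it, was in those of Emcn and of 1 of the 3 windows of Erg. The SOX core ACAAT (31.0%) was in the windows of Emcn and Robo4 and 1 of Erg, the GATA core GATAA (25.4%) in those of Emcn and 1 of Erg, and AACAGGAA (2.65%) in that of Emcn alone. These matches describe letters in short windows and say nothing of binding.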

How the data were processed

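RNA from formalin-fixed, paraffin-embedded tumours was made into stranded libraries after removal of ribosomal RNA. The authors aligned reads to GRCm38 with STAR 2.4 and deposited raw counts of unique alignments per RefSeq gene from htseq-count 0.6.1. How that counting used strand is not given in the sources used here. The authors also deposited log2 values (the rlog transformation of DESeq2) for 7 and for 8 tumours, used here only as an alternative scale. Replicates are separate tumours by their labels.

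Counts were analysed with edgeR 4.0.16 in R 4.3.3 (TMM, filterByExpr with minimum count 10 and minimum total count 15, robust quasi-likelihood test, no covariate), fitted to the whole table with p-values adjusted by Benjamini-Hochberg across every tested gene and a threshold of 0.05. Log2 CPM used a prior count of 2. Scripts were tested on simulated data. Exact permutation tests ran over the 35 splits of 7 tumours and the 70 of 8. Alternatives were all 8 tumours, DESeq2 1.42.0 with and without a prior, other normalizations and filters, no robust estimates, a skeletal muscle score (mean log2 CPM of 30 genes) as covariate, and each tumour left out. DESeq2 over 8 tumours and the muscle covariate over 8 tumours were added after the data were seen.

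The members and gene lists were chosen with earlier results of these data known. Genes named outside the 10 are Epas1, in each list the tested gene with the smallest p in each direction and those past the threshold, and the 5 genes most like the mean of the 10, except where stated. Gene positions came from RefSeq and GENCODE annotation of GRCm38, and older symbols were matched to current ones. A further engineered allele that both groups carry is not reported here.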

Additional observations from a re-analysis of the deposited data

Results flagged for a closer look

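Epas1 was at 59.2 CPM in KP 5, and the gap of this lowest KP tumour to the next, at 83.2 CPM, took up a larger share of the range of the 4 KP tumours (0.867) than Dixon's 95% limit for an outlier among 4 values. Chance alone gives such a mark in about 1 of 20 groups, and 22 groups were examined, the KP and the KPH2 tumours for each of the 10 endothelial genes and Epas1. None of the 10 endothelial genes gave one.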

How the results depend on the processing

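No paired analysis was possible because the replicate numbers of the KP tumours (5 to 8) and of the KPH2 tumours (1 to 4) are not shared. Over 179 refits of single endothelial genes, 161 kept direction and side of the threshold, 11 passed the threshold where the fit over 7 tumours had not, and 7 changed sign. The changes of sign were those of Vwf over all 8 tumours (-0.13 by edgeR, -0.13 by DESeq2, -0.66 with the muscle covariate), without KP 5 (-0.14) and without KPH2 3 (-0.16), and those of Cdh5 (0.33) and Emcn (0.16) with the muscle covariate over 7 tumours. With 1 tumour left out Vwf ran from -0.16 to 0.36. The number of the 10 genes past the adjusted threshold was 3 by DESeq2 with or without a prior, 4 by DESeq2 over all 8 tumours, and 0 to 1 when 1 tumour was left out. The median log2 fold change was -0.10 with the muscle covariate over 7 tumours, and from -0.76 to -0.44 with 1 tumour left out. The number of genes without overlap ran from 5 to 8 with 1 tumour left out and was 5 on the authors' rlog values for 7 and for 8 tumours. The number with an exact permutation p under 0.05 was 1 over 7 tumours and 5 over 8. That test was run only for the 10 genes and Epas1, so no share of all genes stands beside these numbers. Over 8 tumours the 5 are the genes without overlap, as 4.39% of all genes were with KPH2 lower. Of the 30 further endothelial genes, 1 passed over 7 tumours, 0 over all 8 tumours, with the muscle covariate, and with both, 4 by DESeq2 with or without a prior and 4 by DESeq2 over all 8 (3.43% and 2.38% of all genes passing as lower), and 0 to 2 with 1 tumour left out, the 2 being without KP 5. The causes of these differences were not tested. Depth limits Sox17 most, with 12 to 61 counts per tumour.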
